A study of Homo sapiens with 10 samples.

Results

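The transcriptional co-activators YAP1 and WWTR1 (TAZ), their DNA-binding partners TEAD1 and TEAD4, and 6 genes that YAP/TEAD complexes are known to switch on were followed in melanoma cell lines before and after acquired resistance to combined BRAF and MEK inhibition. The 10 genes were picked by symbol (CTGF and CYR61 are now also called CCN2 and CCN1) and are 10 of the 57955 genes in the expression tables. All 10 were found. All 10 also passed the filter on low counts, which 17288 genes passed, so none was left out of the tests.

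mRNA of 10 cultures was sequenced, 1 library each. The sensitive group held the original BRAF-mutant melanoma lines WM983A, WM278 and WM902B, labelled as primary, and WM983B and WM1617, labelled as metastatic. The resistant group (E+BRes) held the line derived from each of these 5 by growth in encorafenib, a BRAF inhibitor, and binimetinib, a MEK inhibitor. Selection started at 1 nM, took 3 to 5 months to reach 200 nM, and the resistant lines then stayed in 200 nM of the combination. The original lines had not gone through this selection, so acquired resistance and the drug in the medium cannot be told apart. No line had a second culture in either state, and the 5 lines stood in as the replicates of a group. They came from 3 patients, since WM983A and WM983B, and likewise WM278 and WM1617, are a primary tumour and a metastasis of 1 person.

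In the Hippo pathway, the kinases STK3 and STK4 activate LATS1 and LATS2, which phosphorylate YAP1 and WWTR1 and hold them in the cytoplasm. When this restraint is lifted, the co-activators enter the nucleus and bind TEAD factors at target genes, several of which encode matrix-associated growth regulators or inhibitors that feed back on the pathway. YAP and TAZ activity is largely set by phosphorylation and localisation, which mRNA levels do not show, and it is known for its part in the dedifferentiated, drug-tolerant states of melanoma cells.

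TEAD factors bind the sequence CATTCC, or GGAATG when read on the other strand. Both strands of the 250 bases before each RefSeq transcription start (GRCh38.p14) were searched for it. A promoter entry was found for 7 of the 10 genes, with 10 starts between them; CYR61, TEAD1 and TEAD4 had none. At least 1 match was present in 5 of these 7 genes, and in 5 of the 10 windows of 250 bases. The shares of all promoters given below are counted by window and not by gene. The following 4 windows belong to target genes and hold 1 to 3 matches, in capitals; each window ends at the base before the start, is written 5′ to 3′ on the gene's strand, and lies on the minus strand.
CTGF, chr6:131951373-131951622: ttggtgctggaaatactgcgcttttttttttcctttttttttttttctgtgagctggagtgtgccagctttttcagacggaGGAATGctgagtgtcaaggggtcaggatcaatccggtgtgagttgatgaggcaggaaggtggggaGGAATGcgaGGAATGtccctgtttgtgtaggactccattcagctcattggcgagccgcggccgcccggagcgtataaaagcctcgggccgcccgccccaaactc
ANKRD1, chr10:90921088-90921337: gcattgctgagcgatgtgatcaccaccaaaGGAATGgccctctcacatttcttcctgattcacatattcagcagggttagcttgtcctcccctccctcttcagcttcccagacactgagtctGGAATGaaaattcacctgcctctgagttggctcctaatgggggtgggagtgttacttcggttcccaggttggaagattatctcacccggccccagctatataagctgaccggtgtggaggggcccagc
AMOTL2, second start, chr3:134374448-134374697: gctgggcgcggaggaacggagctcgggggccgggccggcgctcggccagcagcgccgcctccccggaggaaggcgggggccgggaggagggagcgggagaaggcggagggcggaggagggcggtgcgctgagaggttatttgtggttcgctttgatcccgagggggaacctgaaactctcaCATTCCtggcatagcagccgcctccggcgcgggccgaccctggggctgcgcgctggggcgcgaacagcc
AJUBA, second start, chr14:22976843-22977092: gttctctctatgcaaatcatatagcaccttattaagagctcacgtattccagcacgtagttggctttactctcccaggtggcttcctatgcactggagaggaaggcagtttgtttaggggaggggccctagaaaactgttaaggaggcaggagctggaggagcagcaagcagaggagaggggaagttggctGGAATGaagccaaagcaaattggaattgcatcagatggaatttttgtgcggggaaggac
CTGF carried 3 matches, whose first bases lay 169, 104 and 95 bases before the start. ANKRD1 carried 2, at 220 and 128 bases, and the second starts of AMOTL2 and AJUBA carried 1 each, at 69 and 59 bases. YAP1 itself had 1, at 162 bases. No match was present before the first starts of AMOTL2 and AJUBA, before either start of WWTR1, or before LATS2. Of all 35116 RefSeq promoter windows of the same length, 11.9% held at least 1 match, 0.94% at least 2 and 0.0826% at least 3. The ANKRD1 window was the only one of the 10 with a match to the AP-1 motif TGANTCA, which 6.57% of all windows hold and which does not overlap the matches to CATTCC. None held the serum response factor motif known as the CArG box, against 1.16% of all windows. A match describes the letters present and not binding, which was not measured.

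Library totals ranged from 13693922 to 18033247 counts, so that 3 counts, taken as the smallest detectable level, were worth 0.166 to 0.219 CPM, a measure of the share of the library's total. Levels are given as normalized counts, that is, counts scaled by TMM factors to a common library size. WM1617 stood apart for these genes. Its 2 libraries had the lowest level of their state for 6 of the 10 members, namely CTGF, CYR61, ANKRD1, AMOTL2, AJUBA and LATS2, although the primary line WM278 of the same patient had the highest sensitive level of 5 of these 6. All 7 melanocyte markers were above 0 in every library, though 1 was at or under 3 counts in resistant WM983A. Their summed level fell between 5114 and 67803 in the sensitive libraries and between 1308 and 65759 in the resistant ones, and WM1617 was the highest in both states. In such bulk samples, fewer cells of a kind and less RNA per cell cannot be told apart. The 4 endothelial and 4 leukocyte markers summed to at most 815 and 77.3 normalized counts, respectively, with the endothelial maximum in sensitive WM278.

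YAP1 (chromosome 11, 102110447 to 102233424, plus strand) encodes the better known of the 2 co-activators. Its level was 3456 normalized counts in sensitive WM278, 1780.3 in WM902B, 1152 in WM983A, 945 in WM983B and 1807 in WM1617, against 2047, 2547, 1892, 3012 and 2017 in the resistant lines in the same order. It was thus higher in 4 resistant lines and lower in resistant WM278, and the groups overlapped. The log2 fold change over the 5 lines was 0.33 ± 0.34 (SE, n = 5 per group), with an adjusted p of 0.874 (edgeR, quasi-likelihood), and the exact permutation p was 0.230. YAP1 shares 628 exon bases with a lncRNA on the opposite strand (ENSG00000254422, 70 to 173 counts per library), WWTR1 shares 756 with WWTR1-AS1 (88 to 370 counts) and CTGF shares 278 with LINC01013 (0 to 18 counts). On the same strand, AMOTL2 shares 187 with the pseudogene RPL39P5 (0 to 26 counts) and AJUBA shares 50 with ENSG00000259132 (71 to 315 counts). Whether the reads were counted by strand is not given in the sources used here, so reads from these shared bases are uncertain.

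WWTR1 (chromosome 3, 149517235 to 149736714, minus strand) encodes TAZ, the paralogue of YAP1. In the sensitive lines it measured 6240.2 normalized counts in WM278, 5526 in WM902B, 4113 in WM983A, 3503 in WM983B and 6723 in WM1617. The resistant lines gave 4129, 1662, 5689, 2145 and 6569.5. The level was 3.32-fold lower in resistant WM902B, 1.63-fold lower in WM983B and 1.51-fold lower in WM278, but 1.38-fold higher in WM983A. The 2 co-activators therefore differed in opposite directions in WM983B and WM902B, where YAP1 was 3.19-fold and 1.43-fold higher. Over all lines the WWTR1 difference was -0.37 ± 0.39 on the log2 scale (SE, n = 5 per group, adjusted p = 0.878 by edgeR), and the groups overlapped.

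TEAD1 (chromosome 11, 12674421 to 12944737, plus strand) was the steadiest of the 10 genes across the sensitive lines, with a 1.71-fold span. Its levels ran from 1888 to 3222 normalized counts in the sensitive lines (median 2392) and from 2196 to 3437 in the resistant ones (median 2540.3). The fold change was 0.06 ± 0.21 (SE, log2, n = 5 per group, adjusted p = 0.972 by edgeR). TEAD4 (chromosome 12, 2959330 to 3040676, plus strand) measured 938 in sensitive WM278, 650.3 in WM902B, 204 in WM983A, 170.3 in WM983B and 727 in WM1617. In the resistant lines the values were 629, 609, 717, 148 and 619. Resistant WM983A was thus 3.51-fold above its parent and in the range of the other lines, while WM983B stayed low in both states, and over all lines the difference was 0.02 ± 0.54 (SE, log2, n = 5 per group, adjusted p = 0.998 by edgeR).

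**Figure D1:**
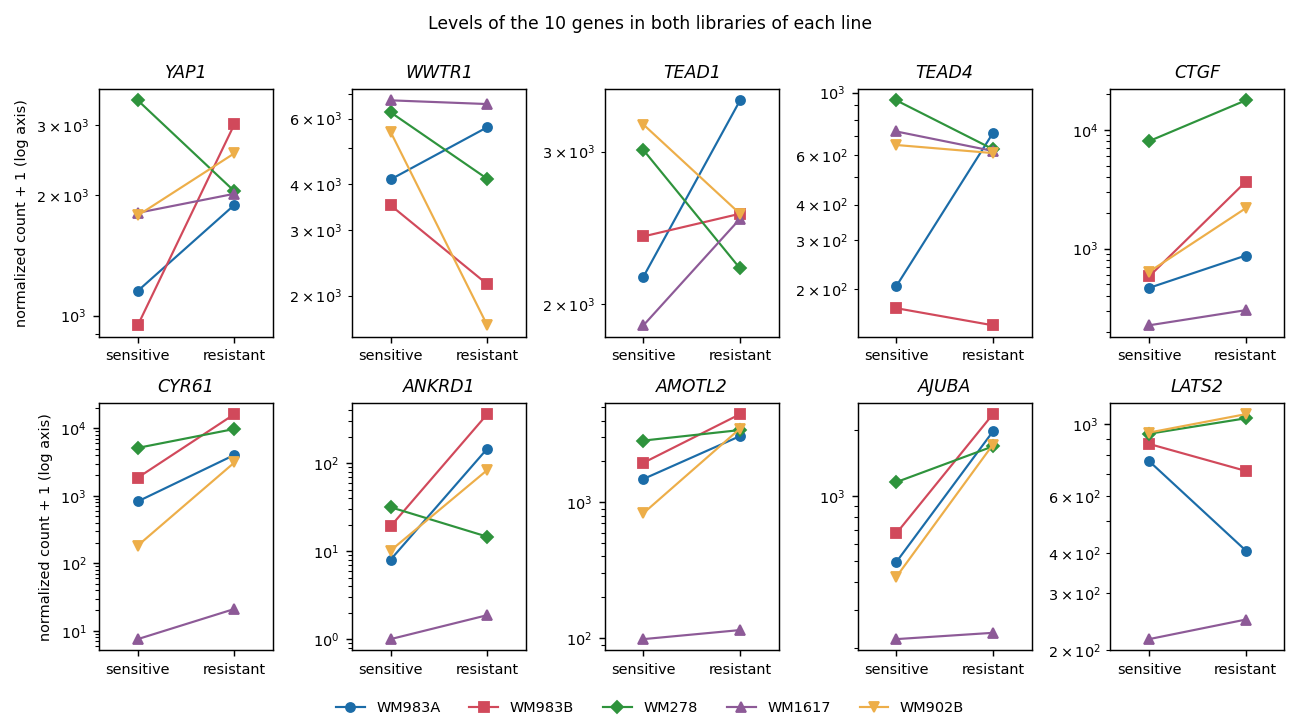
Normalized counts with 1 added, on log axes, of the 10 genes in the sensitive (left) and resistant (right) library of each line; each colour and marker is 1 line and each point 1 library. The lines for CTGF, CYR61, AMOTL2 and AJUBA all slope upward, and WM1617 lies below the other lines in the lower row.

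The matricellular growth regulators CTGF and CYR61 are the classical readouts of YAP/TEAD activity. CTGF (chromosome 6, 131948176 to 131951372, minus strand) measured 8021 normalized counts in sensitive WM278, 638 in WM902B, 467 in WM983A, 583 in WM983B and 226 in WM1617. The resistant lines held 17667, 2188, 875, 3652 and 303. Every resistant line was above its own parent, by 2.20-fold in WM278, 3.43-fold in WM902B, 1.87-fold in WM983A, 6.26-fold in WM983B and 1.34-fold in WM1617. The groups overlapped nonetheless, since sensitive WM278 exceeded every resistant line but its own derivative.

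CYR61 (chromosome 1, 85580761 to 85584589, plus strand) had the widest range. It measured 5119 normalized counts in sensitive WM278, 182 in WM902B, 823 in WM983A, 1852 in WM983B and 6.52 in WM1617, a 786-fold span. The resistant lines held 9766, 3112, 4027, 16179 and 20.0. The within-line differences were 1.91-fold, 17.1-fold, 4.89-fold, 8.74-fold and 3.07-fold in the same order, all upward, and the WM1617 value rests on 6 and 23 counts (95% interval of the log2 ratio from counting error alone, 0.28 to 3.21). As for CTGF, the groups overlapped.

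ANKRD1 (chromosome 10, 90912096 to 90921087, minus strand), an ankyrin repeat protein of the nucleus and sarcomere, was the scarcest member. Its counts were 7 and 124 in sensitive and resistant WM983A, 18 and 376 in WM983B, 32 and 14 in WM278, 0 and 1 in WM1617, and 9 and 80 in WM902B. In normalized counts this made the resistant library 20.7-fold higher in WM983A, 19.8-fold higher in WM983B and 9.01-fold higher in WM902B, but 2.25-fold lower in WM278. No fold is given for WM1617, where both libraries were under 3 counts. ANKRD1 was the only member of the 6 targets and feedback genes to be more than 2-fold lower in any line.

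AMOTL2 and AJUBA encode scaffold proteins that also feed back on the pathway, AMOTL2 by binding YAP1 at cell junctions and AJUBA by inhibiting the LATS kinases. AMOTL2 (chromosome 3, 134355347 to 134375479, minus strand) measured 2846 normalized counts in sensitive WM278, 832 in WM902B, 1485 in WM983A, 1955 in WM983B and 97.7 in WM1617, and 3403, 3489.6, 3073, 4452 and 114 in the resistant lines. AJUBA (chromosome 14, 22971177 to 22982551, minus strand) measured 1156, 423, 495, 671 and 218 in the sensitive lines in this order, and 1689.6, 1722, 1978, 2377 and 233 in the resistant ones. Both were at least 2-fold higher in WM983A, WM983B and WM902B and higher by less in WM278 and WM1617, where the intervals from counting error alone included no difference for WM1617 (-0.17 to 0.63 for AMOTL2 and -0.17 to 0.37 for AJUBA, log2). Leaving WM1617 aside, every resistant AMOTL2 and AJUBA level lay above every sensitive one. The share of all genes set apart in this way without WM1617 was not computed. With WM1617 the groups overlapped.

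LATS2 (chromosome 13, 20973036 to 21061586, minus strand), the kinase that restrains YAP1 and is itself a YAP/TEAD target, did not share this direction. Its sensitive levels were 933 normalized counts in WM278, 941 in WM902B, 767 in WM983A, 868 in WM983B and 215 in WM1617, and its resistant levels 1042, 1073, 405, 716 and 247. It was 1.89-fold lower in resistant WM983A and 1.21-fold lower in WM983B, and 1.14-fold higher in WM902B, the 3 lines in which CYR61, ANKRD1, AMOTL2 and AJUBA were at least 2-fold higher. In WM278 and WM1617 it was 1.12-fold and 1.15-fold higher. The fold change over all lines was -0.10 ± 0.48 (SE, log2, n = 5 per group, adjusted p = 0.982 by edgeR).

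**Figure D2:**
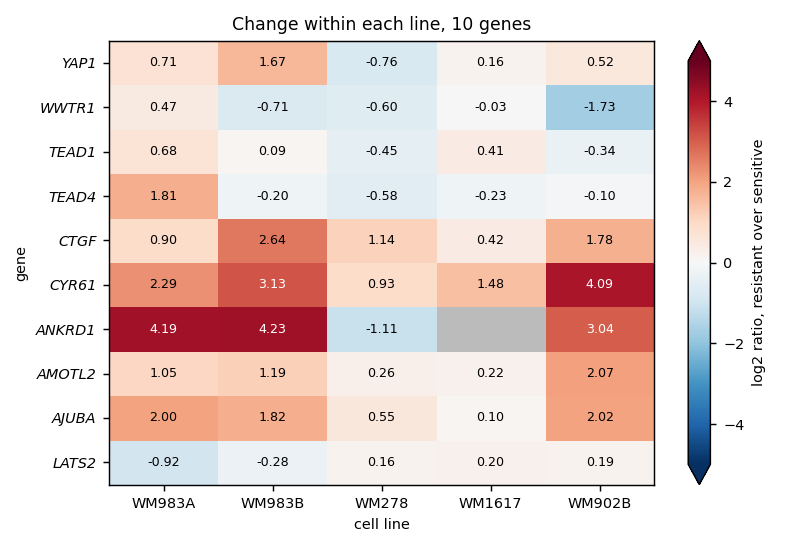
Within-line log2 ratio, resistant over sensitive library, for the 10 genes, from normalized counts with 1 added; red is higher and blue lower in the resistant line, and grey marks ANKRD1 in WM1617, where both libraries were under 3 counts. CYR61 ranges from 0.93 to 4.09, and the co-activator and TEAD rows hold both signs.

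Counted by line, 1 member was at least 2-fold higher in resistant WM278, 5 in WM902B, 5 in WM983A, 6 in WM983B and 1 in WM1617. Among all 17288 genes the shares at least 2-fold higher were 12.1%, 15.4%, 16.9%, 16.2% and 2.83%. The members exceeded these shares most in WM983A, WM983B and WM902B. They were chosen with earlier results of these data known, so this excess is a description and no test. At least 2-fold lower were 1, 1, 0, 0 and 0 members, against 7.0%, 12.0%, 19.4%, 11.2% and 3.8% of all genes. The 1 in WM278 was ANKRD1 and the 1 in WM902B was WWTR1. CTGF, CYR61, AMOTL2 and AJUBA, 4 of the 10 members, were higher in all 5 lines, a pattern of 5.78% of all genes, and CYR61 was at least 2-fold higher in 4 of them, as were 1.72% of all genes. For no member did the 2 groups fail to overlap, against 0.764% of all genes whose groups lay apart.

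The test of the 5 resistant against the 5 sensitive libraries, without regard to line, asks whether a gene differs beyond the spread between lines. A gene was called at a difference of at least 2-fold with a p of at most 0.05, taken first without and then with adjustment over all genes tested. Without adjustment edgeR called 2 of the 10 members, both higher. They were ANKRD1, with a log2 fold change of 3.19 ± 1.30 and an adjusted p of 0.685, and AJUBA, with 1.43 ± 0.58 and an adjusted p of 0.679 (SE). The background was 4.41% of all genes in either direction and 3.53% higher. With adjustment edgeR called no member, and 0.0% of all genes. DESeq2 without a block called the same 2 members before adjustment and 0 after it. Of all 17288 genes it called 699 higher and 200 lower before adjustment, and 104 after it. CYR61 (2.05 ± 1.47, adjusted p = 0.806), CTGF (1.31 ± 1.22, adjusted p = 0.859) and AMOTL2 (1.01 ± 0.87, adjusted p = 0.851) had large differences (log2, edgeR) with standard errors to match. The exact two-sided permutation p of log2 normalized counts was lowest for AJUBA, at 0.127, followed by ANKRD1 at 0.198, and highest for TEAD4, at 0.992; the smallest p that 5 against 5 libraries can give is 0.00794. The 2 calls were lost in 4 of the 10 fits that each left out 1 library (sensitive WM983A, sensitive WM902B, resistant WM983A or resistant WM983B), and 1 call was left in 4 others (without sensitive WM983B, sensitive WM1617, resistant WM278 or resistant WM902B). The shares of all genes called in the fits that left out 1 library are not given here. The CTGF difference turned to -0.19 (log2) without resistant WM278.

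Each resistant line descends from the sensitive line of its name, and a fit with cell line as a block compares them within lines. The block changed the calls. Without adjustment edgeR then called 4 members, all higher: CYR61 (2.47 ± 0.50), CTGF (1.37 ± 0.34), AJUBA (1.31 ± 0.36) and ANKRD1 (2.93 ± 1.02), in log2 with SE and each with an adjusted p of 0.461. The background with this block was 5.54% of all genes, and 3.49% for higher genes. AMOTL2 stayed just under the 2-fold limit (0.96 ± 0.31, edgeR adjusted p = 0.461). The 2 co-activators, the 2 TEAD genes and LATS2 had adjusted p-values from 0.565 (WWTR1, -0.51 ± 0.33) to 0.922 (TEAD4, 0.11 ± 0.37). Leaving out each line in turn from this fit gave 3 to 5 calls, and the shares of all genes called in those fits are not given here. DESeq2 with the same block called the same 4 genes higher at an adjusted p of at most 0.05, where the share of all genes called higher was 1.56%. edgeR with patient as the block called no member, nor did limma-voom, which was fitted without a block. Of all 17288 genes, before adjustment, the fit with patient as the block called 501 higher and 222 lower. limma-voom called 354 higher and 270 lower. Tests that flip the signs of the 5 within-line ratios cannot give a p under 0.0625, which CTGF, CYR61, AMOTL2 and AJUBA reached.

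**Figure D3:**
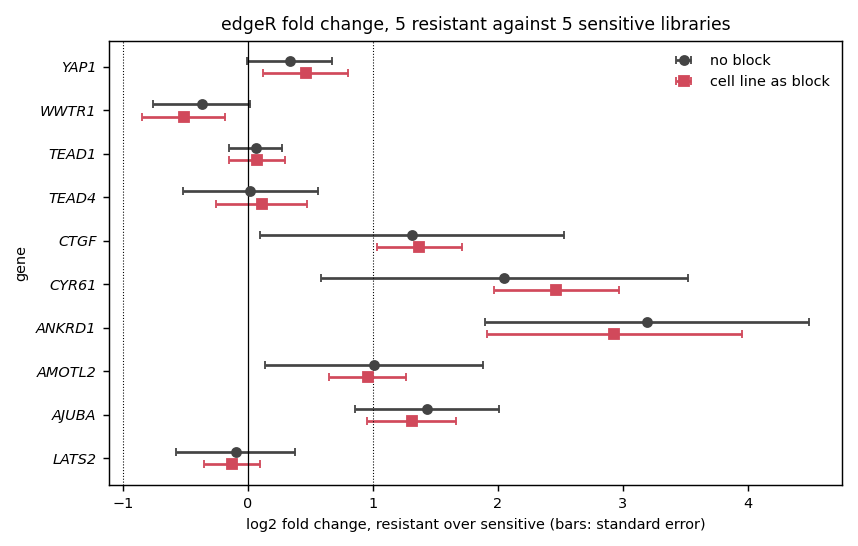
Log2 fold change of resistant over sensitive libraries from edgeR, for the 10 genes, with a standard error worked out from the test statistic (bars). Dark circles are without a block and red squares with cell line as a block. Each group had n = 5 libraries, and dotted lines mark 2-fold changes. The block narrows the error of CYR61 from 1.47 to 0.50 and of CTGF from 1.22 to 0.34 while the estimates become 2.47 and 1.37.

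Whether the change with resistance differed between primary and metastatic lines was tested as an interaction. No member was called by edgeR without adjustment, with or without the block, or by DESeq2, and every adjusted p was 1.00. YAP1 came closest, with a difference between the changes of 0.85 ± 0.70 (SE, log2). The background was 0.925% of all genes. With 3 primary and 2 metastatic lines the standard errors were wide, up to 3.17 for CYR61.

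Compared per kilobase of exon, the order of the members differed between states. In the sensitive lines the median was highest for WWTR1, at 662 normalized counts per kilobase, followed by TEAD4 at 286, YAP1 at 282, CTGF at 249.5, AMOTL2 at 229, TEAD1 at 224 and CYR61 at 223. LATS2 (155), AJUBA (84.1) and ANKRD1 (5.11) were the lowest. In the resistant lines CYR61 led with 1089, followed by CTGF at 936, AMOTL2 at 525, WWTR1 at 494, YAP1 at 324, AJUBA at 293, TEAD4 at 272, TEAD1 at 237, LATS2 at 128 and ANKRD1 at 46.0. CTGF, CYR61 and AMOTL2 spanned 35.5-fold, 786-fold and 29.1-fold between the sensitive lines alone, and most neighbours in these orders overlapped. The exceptions in the sensitive lines were WWTR1, whose lowest level per kilobase (419) was above the highest of TEAD4 (412), and ANKRD1, whose highest (17.1) was below the lowest of AJUBA (37.1). In the resistant lines the lowest TEAD1 level (205) was above the highest of LATS2 (191).

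Over the 10 libraries CYR61, ANKRD1, AMOTL2 and AJUBA followed each other more closely than they followed the co-activators. Pearson's r of log2 normalized counts was 0.98 between CYR61 and AMOTL2 and 0.94 between CYR61 and AJUBA, and stayed at 0.97 and 0.90 over the 8 libraries without WM1617. CTGF and CYR61 had r = 0.79, and 0.72 without WM1617. Between YAP1 and CYR61 it was 0.28, which became 0.53 without WM1617, and between WWTR1 and CYR61 it was -0.58, which became -0.34. CTGF followed YAP1 more closely, with r = 0.59, and 0.71 without WM1617. WWTR1 and CTGF had r = -0.34, and -0.07 without WM1617. LATS2 had r = 0.75 with CYR61, which became -0.13 without WM1617 and so rested on that line. These values describe the libraries, which share 5 lines, and carry no test.

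The genes with the pattern most like a member's were sought among the 17287 others, by Pearson's r over the 10 libraries. For CYR61 they were AMOTL2 (0.98), COG7 (0.98) and SAP30L (0.98). For CTGF they were USP47 (0.98), GGPS1 (0.97) and TRAM2 (0.96), and for ANKRD1 MTMR11 (0.97), PNPLA6 (0.95) and GOLGB1 (0.95). AMOTL2 was the only member among these 9.

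Of 35 further Hippo regulators and nuclear partners, 31 were tested, and 1 was called higher and 1 lower by edgeR without a block (before adjustment), a share close to the background. FAT4, an atypical cadherin upstream of the kinases, went from 135, 18.3, 52.0, 32.2 and 0 normalized counts in sensitive WM278, WM902B, WM983A, WM983B and WM1617 to 475, 632, 396, 513 and 1.74 (log2 fold change 3.08 ± 1.28, SE, adjusted p = 0.685). AMOTL1, a relative of AMOTL2 that binds YAP1, went the other way, from 6079, 1718, 3181, 2391 and 1191 to 1579, 717, 536, 1244 and 1640.0 (-1.35 ± 0.47, SE, adjusted p = 0.632). It was lower in 4 lines and higher in WM1617, while AMOTL2 was higher in all. MOB1B, a co-activator of the LATS kinases, did not pass the test (-0.54 ± 0.25, SE, adjusted p = 0.702) and was lower in every resistant line but WM1617. The median log2 fold change of the 31 was -0.03, beside 0.03 for all genes, with 13 positive and 18 negative. With the block, where edgeR called 354 of all 17288 genes lower before adjustment, AMOT joined AMOTL1 on the lower side (-1.48 ± 0.60, SE, adjusted p = 0.467 by edgeR). DESeq2 with this block called FAT4 alone after adjustment (adjusted p = 2.03e-06). Of all 17288 genes that DESeq2 fit called 510 after adjustment, so 1 call among the 31 is near the background.

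All 17 other YAP/TEAD targets on a list of known ones were tested; 3 were called higher and 0 lower by edgeR without a block (before adjustment), where 3.53% of all genes were higher, and 0 after adjustment. DESeq2 called 2 of them after adjustment without a block, F3 (adjusted p = 0.0458) and NUAK2 (adjusted p = 0.0343), and CCDC80 and NUAK2 with cell line as a block (adjusted p = 0.00755 and 0.0115). Without a block it gave no p for IGFBP3. Of all 17288 genes DESeq2 called 104 after adjustment without a block and 510 with it. The median log2 fold change of the 17 was 0.76, beside 0.03 for all genes, with 14 positive and 3 negative. The list was chosen with earlier results of these data known, so this difference is a description and no test. F3, which encodes tissue factor, measured 131, 112, 65.0, 123 and 55.4 normalized counts in the sensitive lines (WM278, WM902B, WM983A, WM983B, WM1617) and 112, 2509, 107, 2035 and 69.7 in the resistant ones, so its difference (3.31 ± 1.04, SE, adjusted p = 0.630) rested on WM983B and WM902B. The kinase NUAK2 went from 46.7, 12.2, 23.0, 48.4 and 15.2 to 176, 41.2, 751, 386 and 15.7 (3.23 ± 0.95, SE, adjusted p = 0.630). The forkhead factor FOXF2 was 4.17 higher (log2 ratio) in resistant WM902B and between -0.40 and 1.53 in the other lines (2.69 ± 1.10, SE, adjusted p = 0.685).

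The count of these targets moved with single libraries: it was 8 without sensitive WM278 and 6 without both WM278 libraries. The shares of all genes called in those fits are not given here. With the block edgeR called CCDC80, MYOF and NUAK2, and no longer F3 and FOXF2, where 3.49% of all genes were called higher. By line, 3, 11, 8, 9 and 0 of the 17 were at least 2-fold higher in resistant WM278, WM902B, WM983A, WM983B and WM1617, and 4, 1, 2, 0 and 3 at least 2-fold lower. MYOF and NUAK2 were the only 2 of the 17 higher in all 5 lines. The receptor AXL and the ectonucleotidase NT5E held both signs, and NT5E was 5.40 lower (log2) in resistant WM902B.

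**Figure D4:**
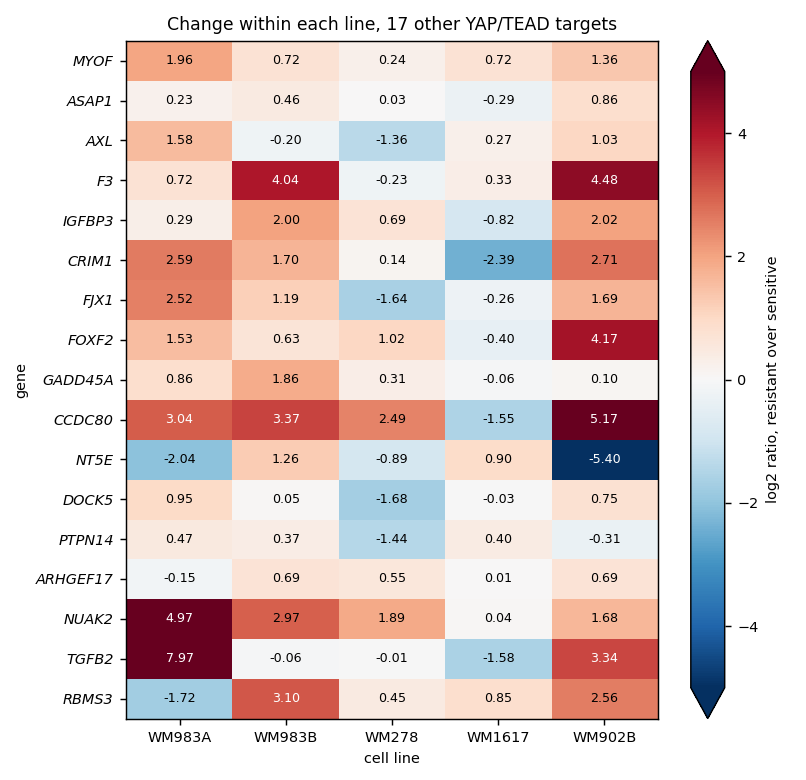
Within-line log2 ratio, resistant over sensitive library, for the 17 other YAP/TEAD targets, from normalized counts with 1 added; red is higher and blue lower in the resistant line. The WM902B column holds the most values of at least 1 (11 of 17) and the WM1617 column none.

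Serum response factor (SRF) and its MRTF co-activators (MKL1 and MKL2) switch on actin and contractility genes that overlap with YAP/TEAD programmes. Of 14 such genes 12 were tested, and 3 were called higher and 0 lower by edgeR without a block (before adjustment), where 3.53% of all genes were higher, and 0 after adjustment. The tropomyosin gene TPM2 was higher by 2.07 ± 0.60 in log2 (SE, adjusted p = 0.630), TAGLN (transgelin) 2.87 ± 0.91 (SE, adjusted p = 0.630) and VCL (vinculin) 1.28 ± 0.40 (SE, adjusted p = 0.630). VCL measured 2273, 1514, 967, 1227 and 1631 normalized counts in the sensitive lines (WM278, WM902B, WM983A, WM983B, WM1617) and 2283, 5249, 5483, 4094 and 1352 in the resistant ones, so it was at least 2-fold higher in the same 3 lines as AMOTL2 and AJUBA. The median over the 12 genes was 0.96 on the log2 scale, beside 0.03 for all genes. This list too was chosen with earlier results of these data known. In WM1617 none of the 12 was at least 2-fold higher. Without a block DESeq2 gave no p for TAGLN and called none of the others after adjustment. With cell line as a block it called TPM1 (adjusted p = 0.0261), where 1.56% of all genes were called higher.

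The melanocyte markers fell in sum in WM983A, WM983B and WM902B and moved little in WM278 and WM1617. The summed normalized count of MITF, SOX10, PMEL, MLANA, TYR, DCT and TYRP1 was 44234 in sensitive WM983A and 1308 in the resistant line, 27399 and 2003 in WM983B, and 41487 and 3529.8 in WM902B. In WM278 it was low in both states, at 5114 and 4554, and in WM1617 high in both, at 67803 and 65759. CTGF and CYR61 were still 2.20-fold and 1.91-fold higher in resistant WM278, and 1.34-fold and 3.07-fold higher in resistant WM1617. The marker sum differed most between the states in WM983A, WM983B and WM902B, the 3 lines in which at least 5 members were 2-fold higher. By edgeR without a block and before adjustment, 1 of the 7 markers, TYRP1, was called lower (-5.21 ± 1.82, SE, log2, adjusted p = 0.630), and 5 of 7 without WM1617. Of all genes tested, 153 of 17288 were called lower, and 494 of 17427 without WM1617. TYRP1 and DCT were nevertheless higher in 2 resistant lines each, and MITF, MLANA and TYR in 1 each. With cell line as a block TYRP1 was no longer called (-1.71 ± 2.14, SE, log2, adjusted p = 0.763 by edgeR). TYR was called lower instead (-3.92 ± 1.42, SE, log2, adjusted p = 0.461 by edgeR). All 7 markers had negative fold changes in both fits, and DESeq2 called TYRP1 after adjustment without the block and SOX10, PMEL and TYR with it. Of all 17288 genes edgeR with the block called 354 lower before adjustment. DESeq2 called 104 of them after adjustment without the block and 510 with it. WM278, low in markers, had the highest sensitive CTGF and CYR61, and WM1617 the lowest. Over the 10 libraries the Pearson's r of CTGF was -0.88 with MITF, the melanocyte lineage factor, and -0.91 with the pigment gene PMEL, and the values without WM1617 were -0.83 and -0.86. CYR61 had r = -0.78 with MITF with and without WM1617. SOX10, another lineage factor, followed them less closely, with r = -0.20 for CTGF and -0.45 for CYR61, and -0.01 and -0.35 without WM1617. By rank (Spearman's rho, 10 libraries) SOX10 had -0.65 with CTGF and -0.67 with CYR61, and MITF had -0.92 with each. These are descriptions over libraries that share 5 lines, for 3 of the 7 markers. The part of the melanocyte state in the members' levels was not tested.

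**Figure D5:**
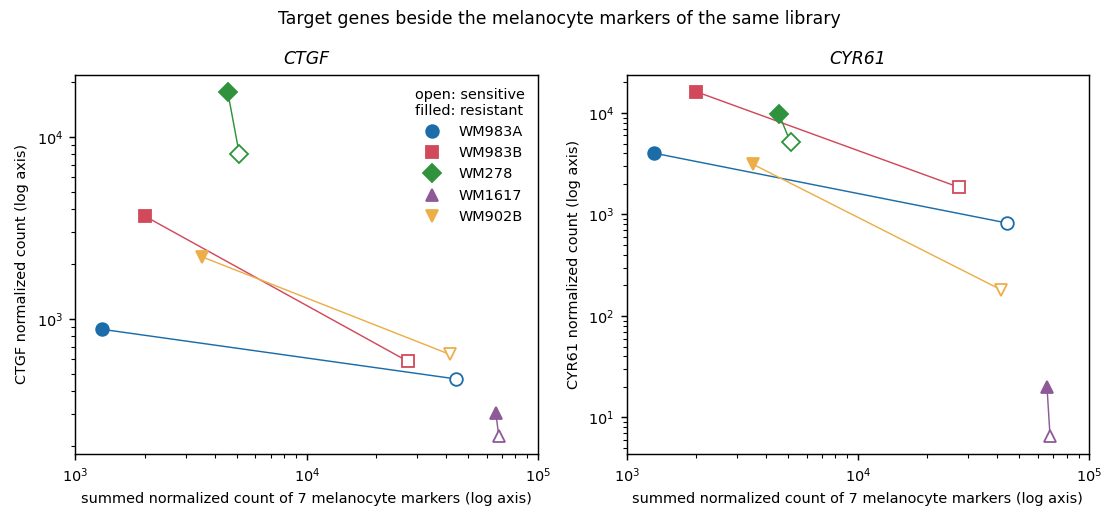
Normalized count of CTGF (left) and CYR61 (right) against the summed normalized count of 7 melanocyte markers in the same library, both on log axes; open symbols are sensitive and filled symbols resistant libraries, and a line joins the 2 libraries of a cell line. WM983A, WM983B and WM902B run from the lower right to the upper left, while WM278 and WM1617 move little along the marker axis.

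Fibroblast markers also differed. Their sum was 201 to 1225 normalized counts in the sensitive lines and 123 to 25742 in the resistant ones, with the maximum in WM902B, where COL1A1 made up 18770.4. In WM983A the sum went the other way, from 912 to 123, and DCN and LUM held both signs across the lines. Of the 5 that could be tested, edgeR called COL1A1 and PDGFRB higher before adjustment, where 3.53% of all genes were higher, and none after it. With cell line as a block, where 3.49% of all genes were higher, it called COL1A1 alone (PDGFRB 2.89 ± 1.26, SE, log2, adjusted p = 0.471 by edgeR). After adjustment DESeq2 called PDGFRB without a block, where it gave no p for COL1A1, and both genes with it. Of all 17288 genes DESeq2 called 104 after adjustment without a block and 510 with it. At least 1 of the 7 fibroblast markers was at or under 3 counts in 9 of the 10 libraries. The keratinocyte markers summed to 317 to 1322 normalized counts. The part of either list in the members' levels was not tested.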

How the data were processed

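The authors mapped single-end reads of 75 cycles with HISAT2 (GRCh38) and counted them per gene with StrandNGS; versions, annotation and strand setting are not given in the sources used here. The values the authors deposited are expected counts (raw reads per gene, fractions included) for 57955 Ensembl genes, beside a normalized log2 value that the authors set relative to the sensitive library of the same line. In sensitive WM983B, 455 counts had been turned into dates; all were recovered from the log2 values and none was a member. Expected counts were rounded, filtered with filterByExpr (17288 genes kept) and tested with edgeR 4.0.16 (TMM, glmQLFit, glmQLFTest, two-sided), 5 libraries against 5, with p-values adjusted by Benjamini-Hochberg over all genes tested. This edgeR test gives no standard error. The SE printed for it is the absolute log2 fold change divided by the square root of the test's F statistic. A gene was called at a 2-fold change and p of at most 0.05. limma 3.58.1 (voom) and DESeq2 1.42.0 served as alternatives, and scripts were tested on simulated data. Within-line log2 ratios, and the counts of genes at least 2-fold higher or lower in a line, used normalized counts with 1 added. Fold values quoted for a line were taken without this addition, with counts under 3 set to 3, so at low counts they differ from the log2 ratios. Neither has a test. Intervals are exact 95% intervals and, like the 3-count floor, cover counting error only. Without a block, p-values are set against the spread between lines, which come from 3 patients. With cell line as a block, they are set against the spread of the within-line change.

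Cell line was the block, since each resistant line derives from the sensitive line of its name; deviations of the 2 libraries of a line correlated at -0.06 (WM983A), 0.54 (WM983B), 0.67 (WM278), 0.67 (WM1617) and 0.38 (WM902B). Members and lists were chosen with earlier results of these data known. Named genes are the 10 members; of each of 3 pathway lists, up to 4 called genes with the largest change, filled up to 3 by smallest p; the 3 genes most like CTGF, CYR61 and ANKRD1; and cell type markers. CCDC80, MYOF, AXL, NT5E and AMOT were named after their values were seen. Positions follow GENCODE 44 (GRCh38) and promoters RefSeq GRCh38.p14.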

Additional observations from a re-analysis of the deposited data

Results flagged for a closer look

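In groups of 5 libraries, a library was singled out where its gap to the nearest other exceeded 0.71 of the group's whole range on the log2 scale, a limit that chance passes in about 1 in 20 groups. Among the 20 groups of the 10 genes, 5 did so. Resistant WM1617 lay far below the other resistant lines for AMOTL2 (gap 0.899 of the range, 114 normalized counts), AJUBA (0.853, 233 normalized counts) and CYR61 (0.752, 20.0 normalized counts). Sensitive WM1617 lay far below the other sensitive lines for LATS2 (0.862, 215 normalized counts). Resistant WM983B lay far below the other resistant lines for TEAD4 (0.896, 148 normalized counts). The cause was not tested.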

How the results depend on the processing

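Members called at an unadjusted p and 2-fold without a block numbered 2, as they did with DESeq2 size factors, library totals alone, no filter on low counts, the DESeq2 Wald test and without the genes held as dates. There was 1 with at least 10 counts in every library (a filter that ANKRD1 does not pass) and 0 with limma-voom and with patient as a block. With cell line as the replicate block there were 4, both in edgeR and in DESeq2 (the latter added after seeing the data), and DESeq2 with this replicate block also called 4 after adjustment, where the others called 0. Leaving out 1 library or line gave 0 to 3 members, 0 to 3 Hippo regulators (2 called), 2 to 8 other targets (3 called) and 2 to 5 SRF and MRTF genes (3 called). The lowest Hippo count was without both WM983A libraries and the highest SRF and MRTF count without sensitive WM278. With the replicate block and each line left out, added after seeing the data, the ranges were 3 to 5, 1 to 4, 1 to 6 and 1 to 4. Most of the fits that left out a library or line are given without the share of all genes called. Hippo regulators called numbered 1 with the 10-count minimum, limma-voom and patient as a block, and 4 in DESeq2 with the replicate block. Other targets called numbered 0 with limma-voom, 1 with patient as a block and 5 in DESeq2 with the replicate block. The replicate block changed no call of the interaction, at 0 throughout.

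Sign changes concerned TEAD4, TEAD1, LATS2 and CTGF. TEAD4 became -0.012 without a filter (log2), and ranged from -0.31 to 0.30 with libraries or lines left out and from -0.28 to 0.30 with the replicate block. TEAD1 ranged from -0.10 to 0.20 and from -0.077 (without WM983A) to 0.22, being -0.015 without WM1617 in the latter; LATS2 ranged from -0.34 to 0.11 and from -0.21 to 0.067 (without WM983A), and CTGF from -0.19 to 3.36 and from 1.06 to 1.61. Within-line ratios moved by more than their counting interval in 10 cases and by less in 186 with another pseudocount or scaling. Depth limits ANKRD1, with at most 32 counts in a sensitive library, and CYR61 in WM1617, with 6 and 23 counts.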
